A study of Mus musculus with 6 samples.

Results

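Red blood cells that lie in the vessels of a tissue can leave their RNA in a bulk library, and 5 genes of these cells were followed in the hippocampus of hyperoxia-exposed and air-exposed mouse pups. They were the 4 adult globin genes Hba-a1, Hba-a2, Hbb-bs and Hbb-bt, and Alas2, the erythroid enzyme of heme synthesis. Each was taken from the deposited expression table by its gene symbol, and all 5 were among the 24935 genes listed. C57BL/6 pups of both sexes stayed with their dams in 85% oxygen from postnatal day (P) 2 to P14, or in room air. The left hippocampus was collected at P14, and polyadenylated RNA was sequenced with a strand-specific kit from 3 air-exposed and 3 hyperoxia-exposed animals, 1 library per animal. The hippocampus was frozen after cervical dislocation, and the sources used here describe no flushing of the vessels. Which cells the globin reads came from was not tested. The table gives normalized counts, that is, read counts divided by 1 size factor per library. Libraries are numbered 1 to 3 within each group as the table numbers them, a number that does not identify the animal. Every direction given here follows the group named in the table's columns. The sources used do not treat the sign of the difference between the groups in 1 way, and no gene in these data checks the column names. Were the names of the groups exchanged, each difference would keep its size and turn its direction, for the members and for every other gene named.

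Hemoglobin is a tetramer of alpha and beta chains, each holding a heme group that binds oxygen. The adult mouse makes alpha chains from the neighbouring genes Hba-a1 and Hba-a2, and C57BL/6 mice make beta chains from the neighbouring genes Hbb-bs and Hbb-bt. Heme is built in a chain of enzymatic steps that begins with 5-aminolevulinate synthase, of which Alas2 is the form of developing red cells and Alas1 the form of other cells. Mature red cells have no nucleus, and the globin and Alas2 messenger RNA in blood is carried mainly by reticulocytes, the youngest circulating red cells. In bulk RNA, fewer cells of a type and less RNA per cell cannot be told apart.

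The globin genes come in nearly identical pairs, and this bears on every value given for them. In the GRCm38 build of the mouse genome with GENCODE M21 annotation, Hba-a1 (ENSMUSG00000069919.7) lies on the plus strand at chr11:32283511-32284465 and Hba-a2 (ENSMUSG00000069917.7) on the plus strand at chr11:32296489-32297298. Hbb-bs (ENSMUSG00000052305.6) lies on the minus strand at chr7:103826534-103828096 and Hbb-bt (ENSMUSG00000073940.3) on the minus strand at chr7:103812524-103813996. The coding sequences of Hba-a1 and Hba-a2 are 426 bases long and identical at 425 of them, and those of Hbb-bs and Hbb-bt are 441 bases long and identical at 440. The single difference is C381T from Hba-a1 to Hba-a2 and C417T from Hbb-bs to Hbb-bt, with positions counted from 1 at the first base of the start codon. The coding stretches around these differences, read 5′ to 3′ on the gene's strand, are shown because they are the only coding bases that separate the members of a pair. The differing base is in capitals. The stretches lie at chr11:32284323-32284363, chr11:32297140-32297180, chr7:103826672-103826712 and chr7:103812663-103812703, in the order printed.
Hba-a1: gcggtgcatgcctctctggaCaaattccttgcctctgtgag
Hba-a2: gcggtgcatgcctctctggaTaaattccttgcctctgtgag
Hbb-bs: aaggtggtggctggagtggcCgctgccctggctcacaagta
Hbb-bt: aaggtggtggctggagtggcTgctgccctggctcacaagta

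Of all stretches of 75 bases, the read length, 389 of the 625 in the Hba-a1 transcript (62.2%) also occurred in Hba-a2, where they made up 81.0% of its 480 stretches. Hbb-bs and Hbb-bt shared 356 stretches, 64.3% of those in Hbb-bs and 56.6% of those in Hbb-bt. Fragments were read from both ends, and a pair of reads can be placed by either read. These shares hold for reads taken singly, and shares for read pairs were not computed. None of the sources used says how reads matching both members of a pair were counted, so a value for a single globin gene is uncertain to that extent. Alpha and beta coding sequences were 56.4% identical and shared no stretch of that length. Alas2 (ENSMUSG00000025270.13) lies on the plus strand at chrX:150547375-150570638, inside the span of Apex2, a DNA repair endonuclease gene on the opposite strand, with which it shared 12.1% of its stretches. Whether the counts used the strand is also not stated. The counts of Apex2 differed between the groups by 0.00062 on the log2 scale (adjusted p = 0.998, limma).

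The 150 bases before the RefSeq start of each gene (GRCm38.p6) are printed for 4 of the members, whose counts are set against each other further on. They lie at chr11:32283522-32283671 (Hba-a1, plus strand), chr7:103827929-103828078 (Hbb-bs, minus strand), chr7:103813924-103814073 (Hbb-bt, minus strand) and chrX:150547267-150547416 (Alas2, plus strand). Capitals mark CACCC (read by the Klf1 family), GATAA (read by Gata factors), CCAAT and TATAA, searched on both strands, so that their reverse complements are marked too.
Hba-a1: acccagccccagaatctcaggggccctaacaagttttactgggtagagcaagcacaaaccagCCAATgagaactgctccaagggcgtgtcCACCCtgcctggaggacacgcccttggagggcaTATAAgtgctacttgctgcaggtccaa
Hbb-bs: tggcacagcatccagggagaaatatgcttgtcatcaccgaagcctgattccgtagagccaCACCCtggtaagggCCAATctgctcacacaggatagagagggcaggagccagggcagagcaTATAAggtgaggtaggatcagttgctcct
Hbb-bt: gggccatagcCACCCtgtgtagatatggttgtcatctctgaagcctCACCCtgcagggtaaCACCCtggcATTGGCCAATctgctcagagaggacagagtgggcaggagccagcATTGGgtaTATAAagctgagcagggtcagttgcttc
Alas2: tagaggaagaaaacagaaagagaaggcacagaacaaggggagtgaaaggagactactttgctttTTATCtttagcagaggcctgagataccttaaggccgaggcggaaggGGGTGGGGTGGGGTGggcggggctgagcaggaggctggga

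The Hba-a2 window matched that of Hba-a1 over the 147 bases that both windows cover, whereas the Hbb-bs and Hbb-bt windows were 70.9% identical when aligned. Hba-a1, Hba-a2 and Hbb-bs each held 1 CACCC, 1 CCAAT and 1 TATAA in this window. Hbb-bt held 3 CACCC and 3 CCAAT, of which a pair on opposite strands adjoin, and 1 TATAA. Alas2 held 3 CACCC in adjoining copies, 1 GATAA, and neither CCAAT nor TATAA. Over all 32851 RefSeq promoters, windows of the same length held CACCC in 37.4%, GATAA in 13.3%, CCAAT in 24.5% and TATAA in 14.2%. These matches describe the letters of the windows only.

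The libraries held between 30384052 and 38746972 reads on genes. Camk2a, listed here as a marker of hippocampal neurons, had between 108603 and 169546 normalized counts in them. How closely the dissection kept to the hippocampus was not tested. A limit on the mean, 10 normalized counts over the 6 libraries, left 17778 genes, of which 5425 (30.5%) differed between the groups in a limma fit of log2(normalized count + 1) with Benjamini-Hochberg adjustment at 0.05. Of all tested genes, 14.9% were called higher after hyperoxia and 15.6% lower. All 5 members passed the filter. Hba-a1 was called higher and Hbb-bt lower, and Hba-a2, Hbb-bs and Alas2 were not called. At 2 of 5 members, beside 30.5% of all genes, the number of calls alone does not set the members apart. The members are therefore described gene by gene and by ratios taken within each library.

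Hba-a1 encodes an alpha chain. Its normalized counts were 293.8, 512.9 and 327.5 in air libraries 1 to 3 and 560.4, 861.6 and 669.9 in hyperoxia libraries 1 to 3. Every hyperoxia library lay above every air library, with air library 2 closest to the hyperoxia group. The group means were 378 ± 118 and 697 ± 152 (SD, n = 3), 1.84-fold higher after hyperoxia. Hba-a1 rose by 0.90 on the log2 scale (SE 0.21, adjusted p = 0.0116, limma). The exact two-sided permutation test gave p = 0.1, the smallest value that 3 against 3 libraries allow. Without air library 1 the log2 difference was 0.74 and the limma call was lost (adjusted p = 0.058), and without hyperoxia library 3 it was 0.92 and held.

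Hba-a2, the partner alpha gene, had 103.6, 172.0 and 114.0 normalized counts in air and 114.0, 158.5 and 171.8 after hyperoxia. The groups overlapped fully, and air library 2 reached the level of the highest hyperoxia library. Means were 130 ± 36.9 and 148 ± 30.3 (SD, n = 3). The log2 difference of 0.20 (SE 0.22) did not pass the test (adjusted p = 0.51, limma). It stayed uncalled in each of 17 alternative fits, in which it ranged from 0.06 to 0.46. With 110 to 178 reads per library, counting error alone was 7.5 to 9.5% of a value, below the spread of 28.4% between air libraries and 20.4% between hyperoxia libraries.

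Hbb-bs, a beta chain gene, was the member with the most reads, 893 to 2235 per library. Its normalized counts were 985.1, 1570.2 and 916.8 in air and 1538.1, 2530.4 and 1369.6 after hyperoxia. Air library 2 exceeded hyperoxia libraries 1 and 3, so the groups overlapped. Means were 1157 ± 359 and 1813 ± 627 (SD, n = 3), and the log2 difference was 0.64 (SE 0.24, adjusted p = 0.076, limma). The value depended on single libraries. The log2 difference was 0.88 without air library 2 and 0.81 without hyperoxia library 3, where Hbb-bs was called (adjusted p = 0.035 and 0.029, limma). It was 0.37 without hyperoxia library 2, 0.49 without air library 3, 0.54 without air library 1 and 0.73 without hyperoxia library 1, with no call (adjusted p = 0.13, 0.23, 0.23 and 0.11, limma).

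Hbb-bt, the partner beta gene, differed in the opposite direction. It had 173.3, 226.9 and 179.7 normalized counts in air and 111.4, 158.5 and 137.1 after hyperoxia. Every hyperoxia library lay below every air library, and library 2 was the highest of each group. Means were 193 ± 29.3 and 136 ± 23.6 (SD, n = 3). Hbb-bt fell by 0.51 on the log2 scale (SE 0.17, adjusted p = 0.042, limma). The exact permutation p was 0.1. This call was less secure than that of Hba-a1. It was lost in 5 of 6 fits that left out a library, and only the fit without hyperoxia library 2 kept it. Log2 differences over the 6 fits ran from -0.63 to -0.38. Without hyperoxia library 3 the difference was -0.53 (adjusted p = 0.060, limma). With the trend on transcript length and GC content removed it was -0.33 (adjusted p = 0.13, limma).

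Alas2, which sets the pace of heme synthesis in red cell precursors, was not called. Its normalized counts were 192.1, 353.1 and 219.7 in air and 203.3, 332.9 and 235.5 after hyperoxia. Library 2 was again the highest of each group, and the remaining 4 libraries lay between 192.1 and 235.5. Means were 255 ± 86.1 and 257 ± 67.4 (SD, n = 3). The log2 difference was 0.03 (SE 0.24, adjusted p = 0.93, limma), and its sign turned between -0.17 and 0.29 as single libraries were left out. Groups did not overlap for 2 of 5 members, Hba-a1 and Hbb-bt, beside 46.1% of all genes tested.

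**Figure D1:**
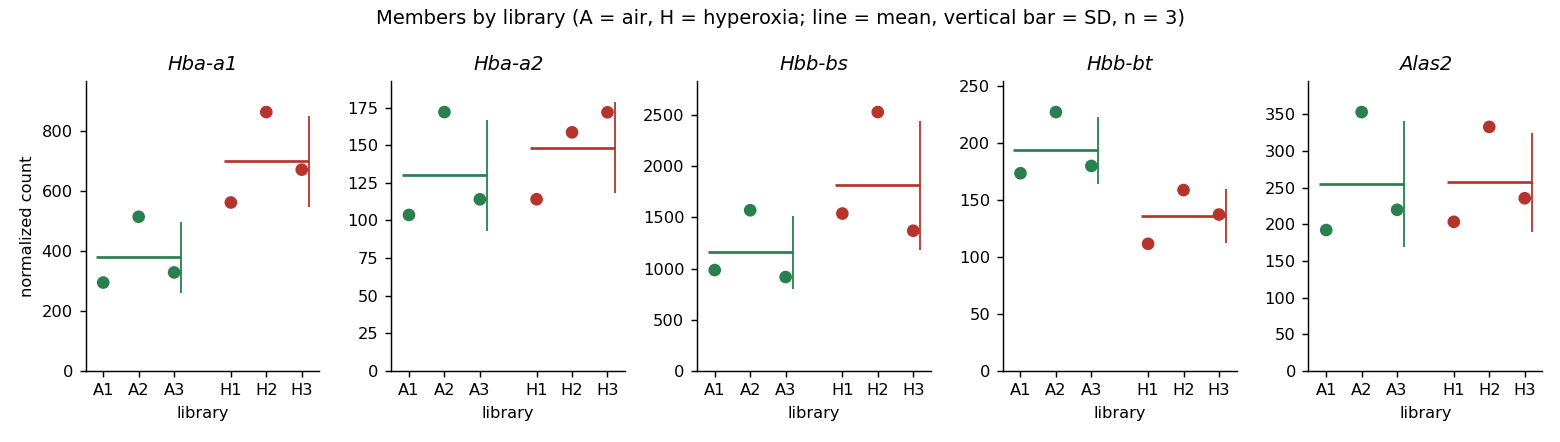
Normalized counts of each member (linear axis from 0) in the 6 libraries, air in green and hyperoxia in red, with the mean as a line and the SD as a vertical bar at its right end (n = 3). Library 2 is the highest of its group in each panel but the hyperoxia side of Hba-a2, Hba-a1 is above and Hbb-bt below the air range in all 3 hyperoxia libraries, and the Alas2 groups lie on the same level.

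In reads per kilobase of exon per 1000000 reads on genes, the scale on which genes can be compared, the order of the medians in air was Hbb-bs (35.2), Hba-a1 (11.2), Hbb-bt (7.12), Hba-a2 (4.76) and Alas2 (2.55). After hyperoxia the medians were 59.5 for Hbb-bs, 24.4 for Hba-a1, 6.91 for Hba-a2, 5.77 for Hbb-bt and 2.90 for Alas2, so that the medians of Hba-a2 and Hbb-bt exchanged places. The ranges of these 2 genes overlapped in both groups, and those of the other neighbours in the order did not. Reads that match both genes of a pair enter these levels in a way that is not known.

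Together the 4 globin genes took a small share of each library. In reads per 1000000 reads on genes (RPM), they received 42.6 (95% Wilson interval 40.6 to 44.7), 69.0 (66.3 to 71.8) and 42.8 (40.7 to 45.1) RPM in air libraries 1 to 3. In hyperoxia libraries 1 to 3 they received 69.1 (66.5 to 71.8), 107.8 (104.2 to 111.6) and 69.4 (66.7 to 72.3) RPM. The intervals cover counting error only, since PCR copies of a molecule cannot be recognised in these counts. Air library 2 could not be separated from hyperoxia libraries 1 and 3 by counting error, whereas air libraries 1 and 3 lay clearly below these and hyperoxia library 2 above. The range within each group was about as wide as the step between the groups.

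**Figure D2:**
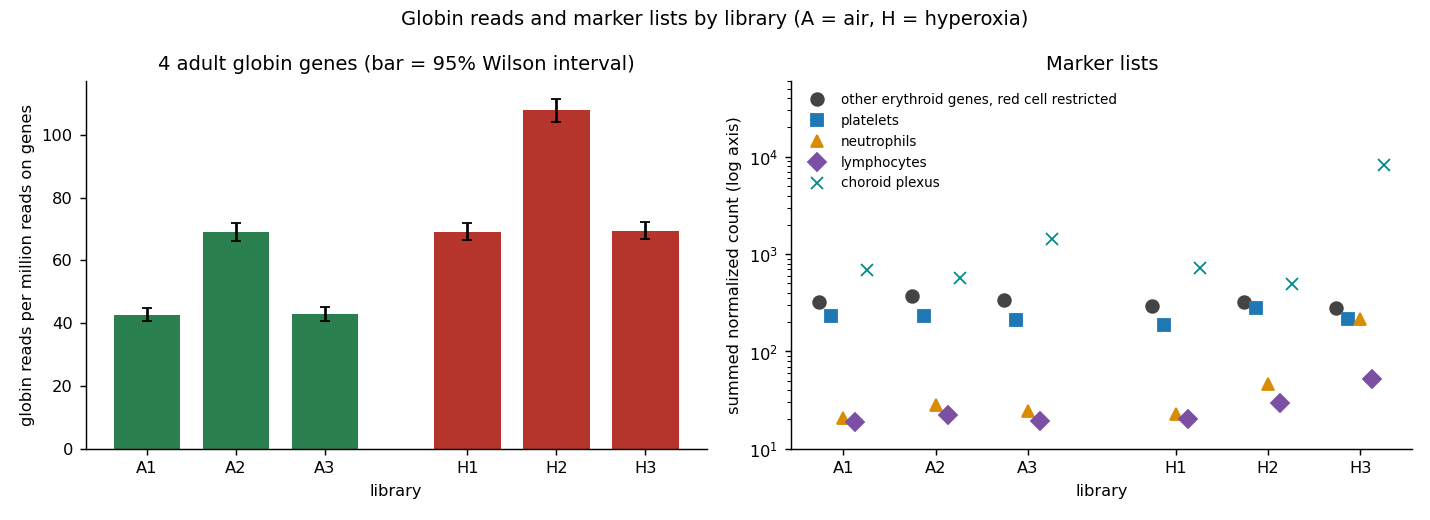
Left, reads on the 4 adult globin genes in RPM by library, with 95% Wilson intervals. Right, summed normalized counts of 5 marker lists on a log axis (points of a library are set side by side): the globin share peaks in library 2 of each group, at 69.0 and 107.8, whereas neutrophil and choroid plexus sums peak in hyperoxia library 3.

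Alas2 served as a gauge inside each library, since a ratio of counts in a library is free of any size factor. These ratios were chosen after the values had been seen. The ratio of Hba-a1 to Alas2 was 1.53, 1.45 and 1.49 in the air libraries and 2.76, 2.59 and 2.84 in the hyperoxia libraries. Within a group it was nearly constant, although the levels of both genes varied between animals, and it was 1.83-fold higher after hyperoxia. The ratio of Hbb-bs to Alas2 was 5.13, 4.45 and 4.17 in air and 7.57, 7.60 and 5.82 after hyperoxia, 1.52-fold higher and without overlap. The ratio of Hbb-bt to Alas2 was 0.902, 0.643 and 0.818 in air and 0.548, 0.476 and 0.582 after hyperoxia, again without overlap but in the opposite direction. The ratio of Hba-a2 to Alas2 was 0.539, 0.487 and 0.519 in air and 0.561, 0.476 and 0.730 after hyperoxia, and the groups overlapped (exact permutation p = 0.5). Each of the 3 ratios without overlap had an exact permutation p of 0.1, which 3 against 3 libraries cannot go below. Over all genes tested, 6.70% had ratios to Alas2 whose groups did not overlap. That background is low by construction, because a gene that does not vary with Alas2 carries the whole spread of Alas2 in its ratio, and the 3 ratios share their denominator.

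Ratios between globin genes were also taken, likewise after the values had been seen. Hba-a1 to Hba-a2 was 2.84, 2.98 and 2.87 in air and 4.91, 5.44 and 3.90 after hyperoxia, a 1.62-fold difference. Hbb-bs to Hbb-bt was 5.68, 6.92 and 5.10 in air and 13.8, 16.0 and 9.99 after hyperoxia, a 2.22-fold difference. In both pairs the gene with more reads gained on its partner in every hyperoxia library, and hyperoxia library 3 was the closest to air. The minor alpha gene gained on the minor beta gene, with Hba-a2 to Hbb-bt at 0.598, 0.758 and 0.634 in air and 1.02, 1.0 and 1.25 after hyperoxia. These 3 ratios did not overlap between groups (exact permutation p = 0.1 for each). Over all other genes, 10.7% had ratios to Hba-a2 without overlap, and 52.0% had ratios to Hbb-bt without overlap, so a separation in a ratio to Hbb-bt does not set Hbb-bs or Hba-a2 apart from other genes. The sum of both alpha genes to the sum of both beta genes was 0.343, 0.381 and 0.403 in air and 0.409, 0.379 and 0.559 after hyperoxia, and here the groups overlapped (exact permutation p = 0.3). Neither did Hba-a1 to Hbb-bs separate the groups (exact permutation p = 0.2).

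If only reads that fit a single gene were counted, the ratios can be scaled by the number of stretches found in only that gene. This scale takes each read singly, although the reads were paired, so it is a rough one. On that scale Hba-a1 to Hba-a2 was 1.09, 1.15 and 1.11 in air and 1.90, 2.10 and 1.5 after hyperoxia. Whether the air libraries held both alpha genes at similar levels therefore depends on this scale. Hbb-bs to Hbb-bt was 7.84, 9.54 and 7.04 in air and 19.0, 22.0 and 13.8 after hyperoxia. The size of each ratio thus depends on the counting rule, while this constant scaling leaves the fold between groups as it was.

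**Figure D3:**
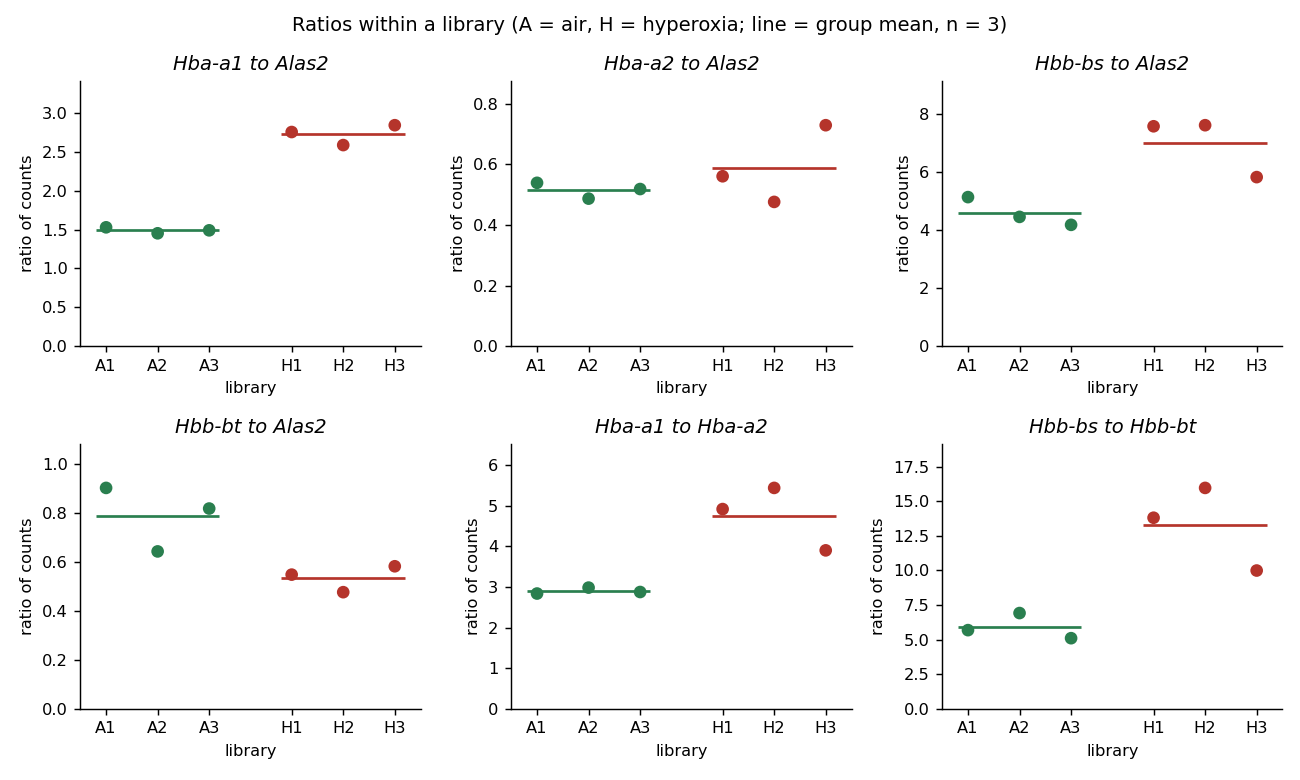
Ratios of counts within each library (linear axes from 0), with the group mean as a line (n = 3). The ratio of Hba-a1 to Alas2 lies between 1.45 and 1.53 in air and between 2.59 and 2.84 after hyperoxia, Hba-a2 to Alas2 overlaps, and Hbb-bt to Alas2 is lower in all hyperoxia libraries.

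With the log2 level of Alas2 in each library as a covariate, a fit added after the data had been seen, limma called 31.0% of genes and 3 of the 4 globin genes, Alas2 itself being untested there. In that fit Hbb-bs was called with a log2 difference of 0.61 (adjusted p = 0.0082, limma), and the calls of Hba-a1 and Hbb-bt held. Alas2 is itself a member, and its level was not set by the experiment, so this fit describes the globin genes relative to Alas2.

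Across the 6 libraries without regard to group, Alas2 followed the globin genes loosely. Pearson's r on log2 values was 0.60 with Hba-a1 (permutation p = 0.225), 0.81 with Hba-a2 (p = 0.050), 0.71 with Hbb-bs (p = 0.136) and 0.53 with Hbb-bt (p = 0.311), all from exact permutation. Spearman's rho was 0.54 (exact permutation p = 0.297), 0.89 (p = 0.033), 0.66 (p = 0.175) and 0.37 (p = 0.497) in the same order. None passed after Benjamini-Hochberg adjustment over the 4 relations, where the smallest exact permutation p was 0.2 for r and 0.133 for rho. Without the 2 libraries farthest from the median of the globin, r was 0.19, 0.64, 0.60 and -0.33 in that order. The pair left out differed from globin to globin, and the sign turned for Hbb-bt alone. For Hba-a1 it was air libraries 1 and 3, so hyperoxia libraries made up most of the rest. Over the remaining 4 libraries, r cannot show whether a relation rested on the pair left out. Once the group means were removed, r was 0.996, 0.84, 0.91 and 0.95, values given without a test because 3 libraries in a group leave few independent points and library 2 was the highest in both.

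**Figure D4:**
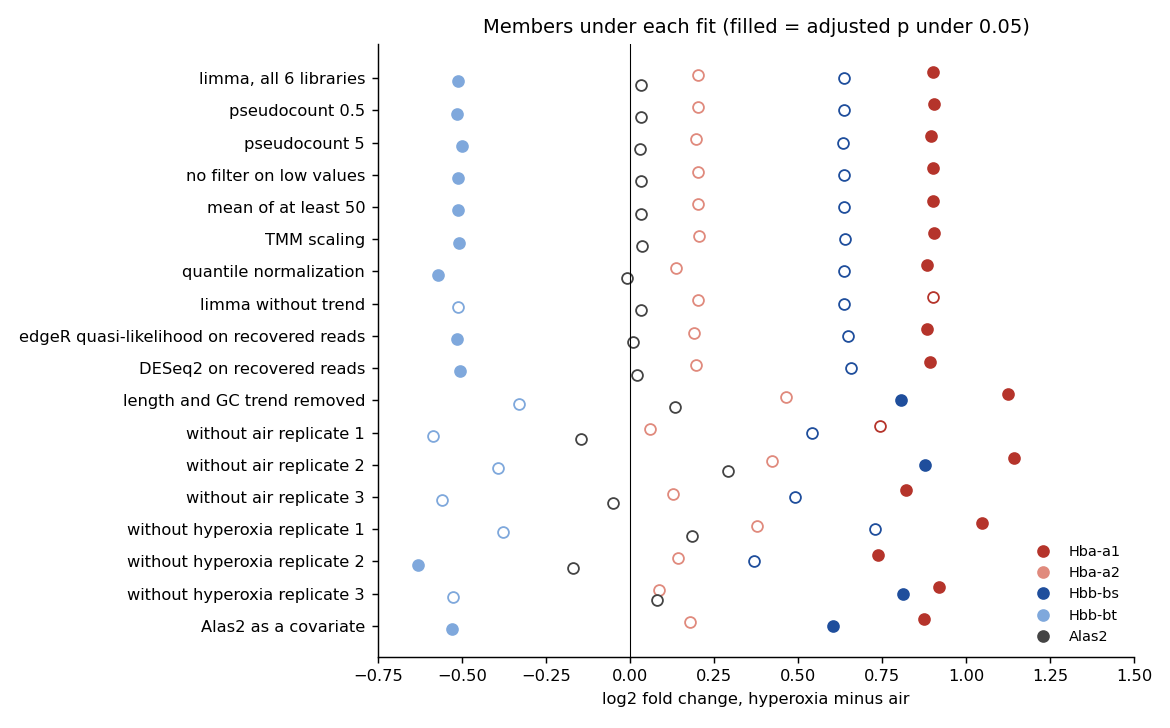
Log2 fold change of each member (x axis, hyperoxia minus air) in each fit (rows), filled where the adjusted p was under 0.05. Hba-a1 is filled in 15 of 17 alternatives and Hbb-bt in 10, Hbb-bs fills in 4, Hba-a2 and Alas2 are never filled, and the Alas2 points lie on both sides of 0.

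Other red cell genes were scarce. Of 22 listed genes largely restricted to the red cell lineage, 15 were in the table, 5 passed the filter, 1 was called lower and none higher, with a median log2 difference of -0.20 beside -0.0072 over all genes. Over all genes tested, 14.9% were called higher and 15.6% lower, shares that stand beside this list and those after it. The 3 genes of this list with the highest means were Epor, Tal1 and Slc4a1. Epor, the erythropoietin receptor, had 135.6, 150.6 and 130.4 normalized counts in air and 76.9, 83.8 and 72.4 after hyperoxia, and fell by 0.83 on the log2 scale (SE 0.14, adjusted p = 0.0028, limma). Slc4a1, the band 3 anion exchanger of the red cell membrane, had 39.6, 68.2 and 44.1 in air and 38.9, 37.4 and 54.1 after hyperoxia (adjusted p = 0.59, limma), so it did not follow the globin genes in hyperoxia library 2. Tal1, a transcription factor of blood and endothelial cells, differed by 0.38 (adjusted p = 0.19, limma). Gata1, the transcription factor that defines the lineage, stood at 0 in 3 of the 6 libraries and at no more than 4.07 in the rest.

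Of 14 erythroid genes that brain cells also use, 13 were in the table and tested, with 2 called higher, 3 lower and 8 not called (median log2 difference 0.04). Isg20, an exonuclease, fell by 0.84 on the log2 scale. Dmtn, the actin-bundling protein dematin, fell by 0.31. Epb41, protein 4.1 of the membrane skeleton, rose by 0.27.

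Of 9 other globin genes, which are embryonic, minor or used outside the red cell, 6 were in the table and 3 were tested, with 1 higher, 1 lower and 1 not called. The uncalled gene was Hbq1b, a theta globin gene, at 0.24 on the log2 scale (adjusted p = 0.56, limma). Ngb, the neuronal globin, had 51.8, 58.0 and 43.1 normalized counts in air and 135.2, 172.1 and 66.6 after hyperoxia, and rose by 1.18 on the log2 scale (SE 0.31, adjusted p = 0.019, limma). All hyperoxia libraries lay above air, hyperoxia library 3 least. Cygb, cytoglobin, had 2785.7, 2812.6 and 2610.8 in air and 1401.1, 1829.6 and 1584.9 after hyperoxia, and fell by 0.78 (SE 0.10, adjusted p = 9.7e-04, limma). The embryonic gene Hbb-y had at most 1.13 normalized counts in any library.

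All 10 listed genes of heme synthesis were tested, and 5 were called lower, 1 higher and 4 not called, with a median log2 difference of -0.21. Over all genes tested 15.6% were lower and 14.9% higher, and the same shares stand beside the lists that follow. Cpox, Ppox and Urod, which act in the later steps, fell by 0.53, fell by 0.49 and fell by 0.47 on the log2 scale (adjusted p = 0.0044, 0.0031 and 0.0028, limma). Alad, the step after 5-aminolevulinate synthase, rose by 0.36 (adjusted p = 0.016, limma). Alas1, the form of the synthase used outside red cells, had 2916.6, 2602.0 and 2437.3 normalized counts in air and 2182.5, 2058.3 and 2217.1 after hyperoxia, and fell by 0.30 (adjusted p = 0.023, limma).

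Of 8 genes of heme breakdown and hemoglobin scavenging, 6 were tested, with 2 higher, 1 lower and 3 not called (median 0.16 on the log2 scale). Cd163, the macrophage receptor that takes up hemoglobin bound to haptoglobin, had 66.9, 83.4 and 60.6 normalized counts in air and 166.2, 138.1 and 115.8 after hyperoxia. The groups did not overlap, and Cd163 rose by 0.98 on the log2 scale (SE 0.18, adjusted p = 0.0045, limma), a call that held in 17 of 17 alternatives. Lrp1, a receptor for heme bound to hemopexin among many ligands, rose by 0.28, and Hmox2, the constitutive heme oxygenase, fell by 0.23. The inducible Hmox1 differed by 0.12 (adjusted p = 0.60, limma).

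Of 9 iron-handling genes, all tested, 5 were called higher, 1 lower and 3 not called (median 0.29 on the log2 scale), beside 14.9% higher and 15.6% lower over all genes. Slc40a1, the iron exporter ferroportin, rose by 0.87 (adjusted p = 5.8e-04, limma), and Ireb2, an iron-sensing RNA-binding protein, rose by 0.84 (adjusted p = 0.0016, limma). Tfrc, the transferrin receptor, rose by 0.39 (adjusted p = 0.034, limma), but its groups overlapped and its call held in 10 of 17 alternatives. Trf, transferrin, fell by 1.06 (adjusted p = 0.0025, limma). Fth1, the ferritin heavy chain and the gene with the most counts of the list, differed by -0.30 and was not called (adjusted p = 0.058, limma). Reticulocytes are among the cells that use these genes, but neurons and glia use them too, and the counts do not separate the sources.

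**Figure D5:**
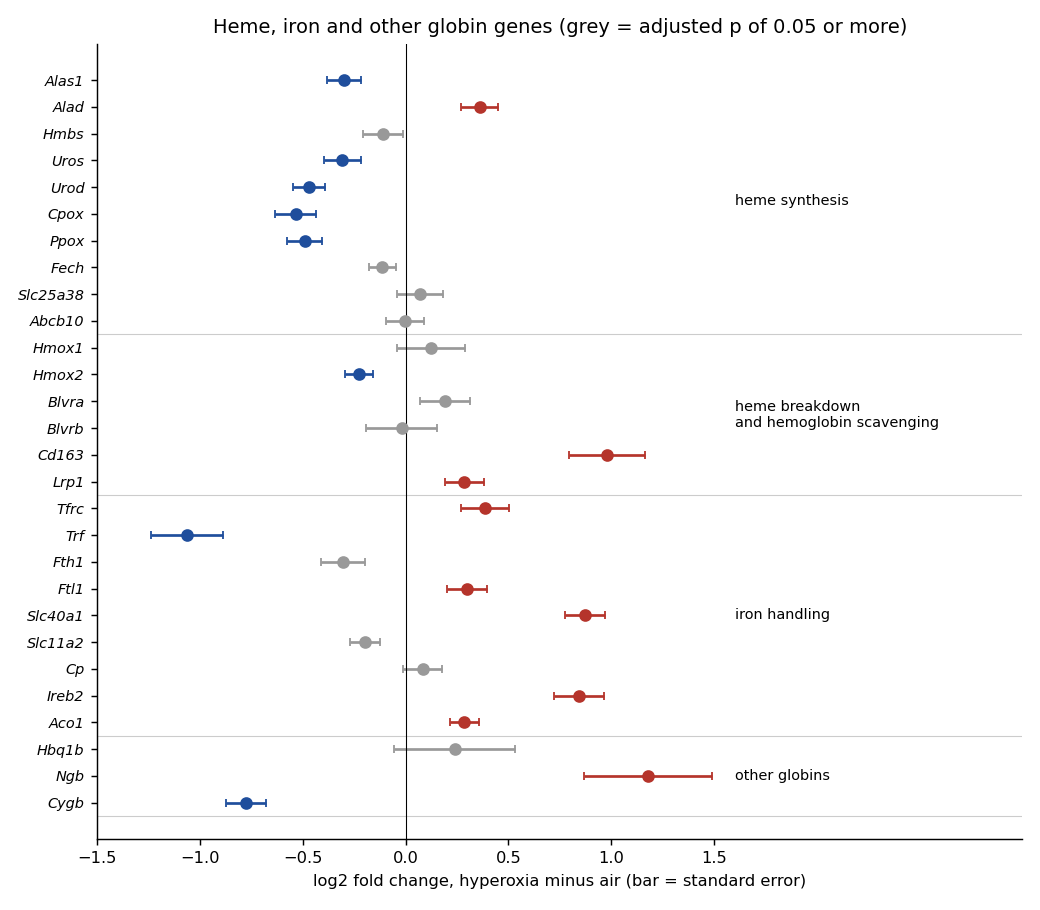
Log2 fold changes (hyperoxia minus air) with standard errors for the tested genes of 4 lists, red where called higher, blue where called lower and grey otherwise in the limma fit. Of 10 heme synthesis genes 5 are called lower, 5 of 9 iron genes are called higher, and Ngb and Cygb point in opposite directions.

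Markers of other blood cells and of neighbouring tissue were summed by library, to be read beside the globin values. The 9 neutrophil genes summed to 20.7, 28.5 and 24.6 normalized counts in air and 23.0, 46.4 and 217 after hyperoxia, with Ngp at 72.4 and S100a9 at 48.3 in hyperoxia library 3, and none of the 3 tested (Ngp, Lcn2 and S100a9) was called. The 6 lymphocyte genes in the table summed to between 18.8 and 22.4 in air and to 20.3, 29.4 and 52.1 after hyperoxia, Cd79a leading, and its test gave no call. The 8 platelet genes summed to between 213 and 230 in air and between 188 and 277 after hyperoxia, with Itga2b, Gp5 and Gp1ba the most abundant, and none of 4 tested was called. The 8 choroid plexus genes summed to 687, 565 and 1435 in air and to 726, 498 and 8296 after hyperoxia, and Ttr alone reached 7454 in hyperoxia library 3. One of the 8, the water channel Aqp1, was called and rose by 1.61 on the log2 scale. Aqp1 was highest in hyperoxia library 3, at 63.7, but did not follow Ttr elsewhere. It stood at 45.1 and 34.0 in hyperoxia libraries 1 and 2, where Ttr was 350 and 183. In air library 3 it stood at 12.3, where Ttr was 887. The source of the Aqp1 reads was not tested. Hyperoxia library 3 thus stood apart in neutrophil and choroid plexus markers, but its globin share of 69.4 RPM matched that of hyperoxia library 1. The part of these cells in the globin values was not tested.

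Vessel markers moved in both directions. Of 10 endothelial genes, all tested, 4 were called higher and 2 lower (median 0.24 on the log2 scale). Kdr, a receptor for VEGF, rose by 0.61, Cldn5, a tight junction protein, by 0.57 and Tek by 0.40, whereas Ly6c1 fell by 0.96. Their sums lay between 10009 and 10372 in air and between 10837 and 12225 after hyperoxia, without overlap, and their part in the globin values was not tested either. Of 6 hippocampal neuron markers, 4 were called lower and none higher, with Spink8 at -0.84 and Neurod6 at -0.75 on the log2 scale.

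Genes whose log2 level followed that of the summed globin genes most closely over the 6 libraries were RP23-257F18.2 (r = 0.99), Sumo3 (0.99), Trappc4 (0.99), Atp5j (0.99) and Ndufb5 (0.99), out of 17773 genes ranked. With group means removed they were Faf1, Mrpl32, Ociad1, Gstm5 and Gm10244, with r from 0.997 to 0.999. The correlation of Alas2 with the sum was 0.74 over the 6 libraries, where 1442 genes stood higher, and 0.96 with group means removed, where 76 genes stood higher. With 6 libraries and 17773 genes ranked, a high r is a description of these libraries. None of the 10 named genes is a red cell marker in the lists used here.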

How the data were processed

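Left hippocampal RNA of 3 air-exposed and 3 hyperoxia-exposed pups was analysed, 1 library per animal by the sample titles. The signal values deposited by the authors are gene counts divided by 1 size factor per library, by DESeq2 as the table is named. The submitters' processing notes name FastQC, STAR 2.5.3a, HTSeq and DESeq2. The genome build, the annotation and the handling of strand and of reads matching several genes are not given in any source used here. All values came out as whole reads within a tolerance of 0.01 after division by each library's step, 30384052 to 38746972 reads on genes per library. Counting error limits the precision of a gene with few reads. A second table held the authors' fold changes and p-values and was not used.

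Genes with a mean of at least 10 (17778) were tested with limma 3.58.1 (eBayes with a trend) on log2(value + 1), with Benjamini-Hochberg adjustment at 0.05. This scale understates changes of low genes. Single values were compared by exact two-sided permutation. Alternatives were another pseudocount or filter, TMM or quantile scaling, no trend, edgeR 4.0.16 and DESeq2 1.42.0 on the recovered reads, removal of a length and GC trend (mgcv), and leaving out each library. Positions, lengths and coding sequences came from GENCODE M21 (99.7% of gene IDs found, 84.8% in the same version) and promoters from RefSeq. Members and gene lists were chosen with earlier results of these data known. Named list genes were up to 4 called genes with the largest change and the gene with the most counts, plus the 3 highest of each blood list. One gene that this rule names is not reported here. Gata1, Hbb-y, Hbq1b, Hmox1 and the alternatives with Alas2 were added after the values had been seen. The limma, edgeR and DESeq2 fits were tested on simulated counts. The share of changed genes they had to recover was lowered after a first bar was missed.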

Additional observations from a re-analysis of the deposited data

How the results depend on the processing

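Hba-a1 kept its direction in all 17 alternative fits and its call in 15. It lost the call without the variance trend (adjusted p = 0.050, limma) and without air library 1. Hbb-bt kept its direction in all 17 and its call in 10, and Hbb-bs kept its direction in all 17 and gained a call in 4. With limma without the trend, 0 members were called, although both Hba-a1 and Hbb-bt had an unadjusted p under 0.05, and edgeR and DESeq2 each called these 2. Leaving out 1 library gave 0 to 2 called members and 3048 to 7756 called genes, the highest without hyperoxia library 2. The Alas2 difference turned to -0.0091 on the log2 scale under quantile normalization, and leaving out libraries gave -0.17 to 0.29. Pearson's r of Alas2 with Hbb-bt turned to -0.33 without the 2 farthest libraries. Over reads without the 10 genes with most reads, the globin genes took 47.7, 77.4 and 47.8 RPM in air and 75.2, 120.2 and 75.2 after hyperoxia, in the same order. The causes were not tested. All ratios kept their direction when each library was left out. No paired analysis was possible because the labels number the animals 1 to 6 without shared numbers, and no other batch is given.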
